A study of Mus musculus with 2 samples.

Results

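The genes described here are 37 genes of motile cilia, the beating cell projections that multiciliated cells carry in large numbers. They were taken as a fixed list of symbols, matched through gene identifiers without version to GENCODE mouse symbols, and all 37 were found among the 43346 genes of the files. The list holds 6 regulators of the multiciliated programme, 3 radial spoke proteins, 9 dynein heavy chains, 2 smaller dynein subunits, 3 tektins and 4 central pair proteins. It also holds 8 proteins that measure out, dock or link parts of the axoneme, and 2 proteins with metabolic or tubulin-binding roles. The values come from total RNA of the hindbrain, the embryonic region that forms the cerebellum, pons and medulla, in 2 libraries of B6NCrl mouse embryos of 14.5 days. Both libraries form 1 untreated group: each stands for 1 hindbrain of 1 pup, the pups were collected on separate dates, and sex is labelled as pooled for both. The labels also give both samples the same donor identifier, so how independent the replicates are is not settled by them, and an SD or difference between replicates may be technical. Collection date and replicate number cannot be told apart, and there is no second condition. Every difference below is therefore between 2 libraries of the same kind.

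A motile cilium is built on an axoneme of outer microtubule doublets around a central pair of microtubules. Dynein arms on the doublets slide them against each other, and radial spokes, the central pair and the nexin-dynein links turn that sliding into a beat. In the brain, cells with many cilia are known from the choroid plexus epithelium and, mostly later, from the ependyma that lines the ventricles, where beating cilia move cerebrospinal fluid. Foxj1, the leading regulator, is also active in floor plate.

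The libraries held 33727977 and 32450699 estimated reads on genes. A floor of 3 counts stood at 0.0889 and 0.0924 CPM, the count scaled to library size; such floors, and the intervals below, cover counting error only. Of 8 genes known to mark the hindbrain, 7 reached 1 TPM, the length-corrected share of transcripts, in both libraries. The other, En2 of the midbrain-hindbrain boundary, was at 0.05 and 0.79 TPM, and Emx1, Emx2 and Six3 of the forebrain were below 1 TPM in both. Lhx2, listed as a forebrain gene but not restricted to it, was at 10.42 and 15.12 TPM. The multiciliated label was met in part. Foxj1, the forkhead factor that defines the motile cilia programme, was at 12.75 and 10.58 TPM, whereas Tmem212 and Sntn, transcripts of mature ciliated cells, had 0 counts in both libraries and Ccdc153 had 2 and 0. These low genes do not stand for their list of 20 further transcripts of ciliated ependymal cells. Of those 20, 12 (60.0%) reached 1 TPM in both libraries, beside 62.5% of protein-coding genes. In bulk tissue such as this, fewer ciliated cells and less RNA per cell cannot be told apart.

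Most of the 37 genes were present at low levels, and a few carried most of the RNA. TPM is corrected for transcript length, so levels may be set beside each other between genes. At least 1 TPM was reached in both libraries by 23 of the 37 genes, which is 62.2%, against 62.5% of protein-coding genes and 34.8% of all genes. Another 5 genes (Gmnc, Ccno, Dnah1, Tekt4 and Ak7) reached it in replicate 1 alone. The remaining 9 (Mcidas, Dnah3, Dnah5, Dnah6, Dnah10, Dnah11, Dnah12, Spag17 and Hydin) stayed below it in both. The summed level of the 37 genes was 358.08 TPM in replicate 1 and 342.27 TPM in replicate 2, or 350.2 ± 11.2 TPM (SD, n = 2). The 6 genes whose mean was 10 TPM or more supplied 76.9% of that sum. These were Tppp3, Rsph9, Rfx3, Dynlrb2, Ccdc40 and Foxj1. The 20 genes with means of 1 to 10 TPM supplied 21.6%, and the 11 genes below 1 TPM supplied 1.46%. Without Tppp3 the sum was 196.27 and 173.81 TPM.

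**Figure D1:**
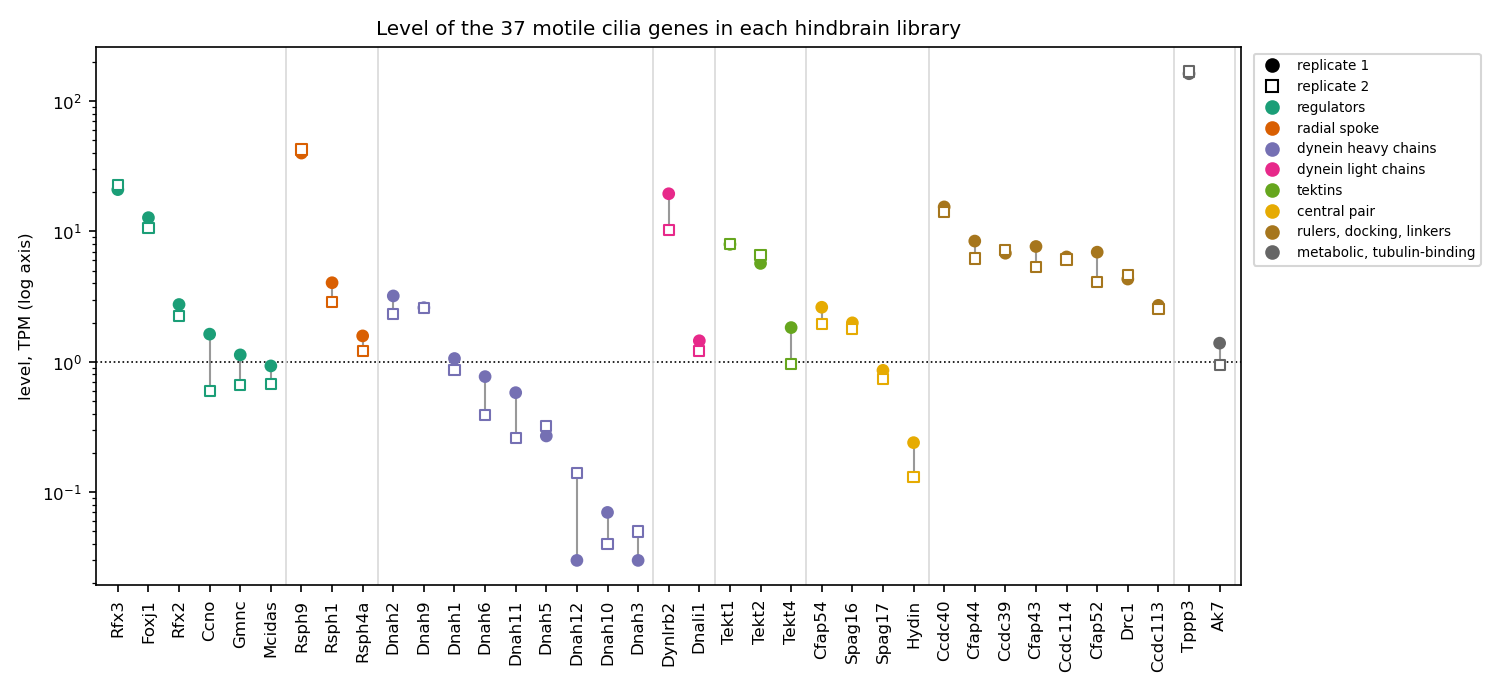
Level of each of the 37 genes in TPM on a log axis, filled circles for replicate 1 and open squares for replicate 2, coloured by role; the dotted line marks 1 TPM. Tppp3 stands highest at 161.81 and 168.46 TPM, and 6 of the 9 dynein heavy chains lie below 1 TPM in both libraries.

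Of the 37 genes, 15 were called lower in replicate 2 and 1 was called higher. The call came from an exact binomial test (two-sided) on expected counts, rounded and scaled by each library's gene total. P-values were adjusted by the Benjamini-Hochberg method over 17664 genes, with a threshold of 0.05. The 15 genes are 40.5% of the list, where 18.7% of all genes tested were called lower. The gene called higher was Dnah12, where 15.7% of all genes were called higher. All 37 genes passed the filter of a mean of at least 10 counts, although the lowest single count was 5. The median log2 ratio of scaled counts, replicate 2 over replicate 1, was -0.34 over the 37 genes and -0.03 over all genes tested. The called genes were 1.19-fold to 2.84-fold lower, with a median of 1.56-fold. No gene of the 37 passed 2-fold on the log2(TPM + 1) scale in either direction. Among the 15661 genes that averaged 1 TPM or more, 0.951% passed it downwards and 0.581% upwards. On that scale, which understates changes of low genes, the median over the 26 of the 37 genes with such a mean was -0.18, beside 0.05 over all 15661.

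The test asks only whether 2 libraries differ by more than counting noise. The authors' credibility intervals around each TPM come from the same reads and are not separate evidence. Among genes called lower, they did not overlap between the libraries for Foxj1, Gmnc, Ccno, Dnah6, Dynlrb2, Hydin, Cfap43 and Cfap52. The share of all genes without such overlap was not computed, so the number of these genes is not read as a result. With scaling by the spike-in RNAs, 11 of the 37 genes were still called lower and 3 (Dnah12, Rfx3 and Tppp3) were called higher. That scaling moved the median log2 ratio of well-counted genes to 0.12, and the split over all genes to 8.46% lower and 35.2% higher. With TMM factors the split over all genes was 14.7% lower and 20.8% higher, and the count of the 37 called lower stayed at 15.

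**Figure D2:**
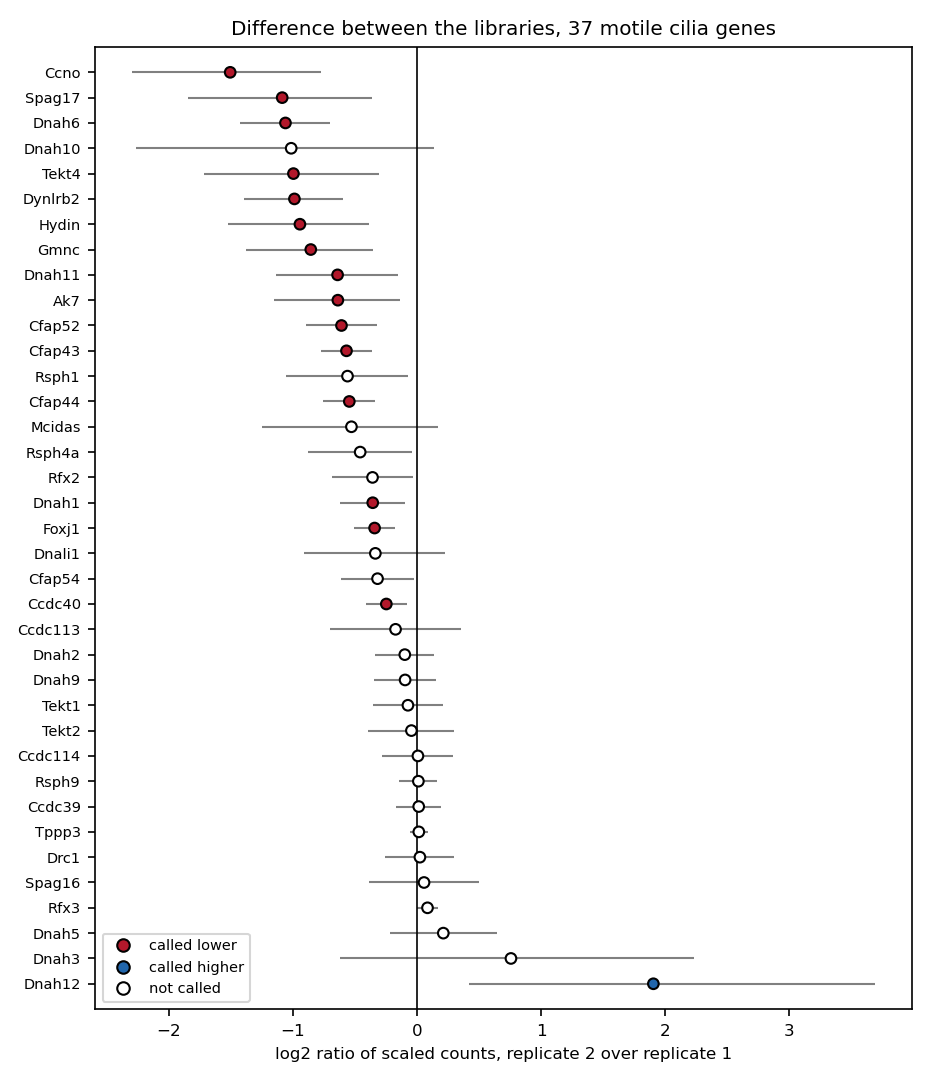
Log2 ratio of scaled counts, replicate 2 over replicate 1, for each of the 37 genes, with 95% exact binomial intervals that cover counting error only. Filled red points mark the 15 genes called lower, the blue point marks Dnah12, called higher, and open points were not called; Ccno lies farthest to the left, at 2.84-fold lower in replicate 2.

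The regulators of the programme divided between 3 called lower and 3 not called. Gmnc and Mcidas are relatives of geminin that switch on the multiciliated fate together with E2F factors, and Ccno, cyclin O, is needed to multiply centrioles before cilia grow. Gmnc (chr16:26913553-26991652, coordinates on GRCm38, which is mm10) was at 1.13 TPM in replicate 1 and 0.66 TPM in replicate 2, from 96 and 51 counts. It was called 1.81-fold lower (95% interval 1.28 to 2.60, adjusted p = 0.0026, exact binomial test). Ccno (chr13:112987802-112990777) was at 1.63 and 0.60 TPM, from 62 and 21 counts. Its difference was the largest of the genes called lower, at 2.84-fold (interval 1.71 to 4.91, adjusted p = 0.000108, exact binomial test). Mcidas begins 3.067 kb beyond the end of Ccno on the same strand. Its levels of 0.93 and 0.68 TPM came from 45 and 30 counts, and the 1.44-fold difference had an interval of 0.889 to 2.37 that includes no difference. All 3 genes were thus near or below 1 TPM, and replicate 1 held the higher value for each.

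Foxj1 (chr11:116330704-116335399), which Gmnc and Mcidas act through, stood above them at 12.75 and 10.58 TPM, higher than 59.7% of protein-coding genes. Its 688 and 522 counts gave a 1.27-fold lower value in replicate 2 (interval 1.13 to 1.42, adjusted p = 0.00031, exact binomial test). Rfx2 and Rfx3 bind the X-box in promoters of ciliary genes. Rfx3 was the third most abundant of the 37 genes, at 20.91 and 22.79 TPM from 2248 and 2292 counts, and was not called. With TMM factors, DESeq2 size factors or spike-in scaling it was called higher in replicate 2, with a log2 ratio of 0.12, 0.11 or 0.21. Rfx2 was at 2.75 and 2.26 TPM and was not called (adjusted p = 0.0726, exact binomial test). The DNA-binding factors Foxj1 and Rfx3 were therefore well above the co-regulators Gmnc and Mcidas and above Ccno in both libraries.

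Promoter sequences are shown for the genes whose promoters hold an X-box, the letters that RFX factors read, because 4 of those 6 genes were called lower in replicate 2. RefSeq entries on GRCm38.p6, the assembly of the files, were matched for 31 of the 37 genes, each 250 bases before to 50 bases after a start. No entry was matched for Cfap54, Dnah3, Foxj1, Rsph1, Rsph4a and Tppp3. The X-box was searched as an inverted repeat with 0 to 3 bases between its arms, on both strands, and this search was added after values had been seen. A gene with several annotated starts was counted where any of them held the match. Capitals mark the match; each sequence runs 5′ to 3′ on the gene's strand and stops at or before the start.
Ccno, chr13:112987563-112987616, plus strand: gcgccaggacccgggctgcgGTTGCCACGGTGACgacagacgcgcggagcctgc
Cfap44, chr16:44394752-44394798, plus strand: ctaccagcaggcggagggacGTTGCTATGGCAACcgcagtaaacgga
Dynlrb2, chr8:116504944-116504996, plus strand: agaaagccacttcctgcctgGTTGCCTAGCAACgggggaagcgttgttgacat
Hydin, chr8:110266936-110266976, plus strand: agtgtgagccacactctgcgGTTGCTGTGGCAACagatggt
Spag16, chr1:69826847-69826900, plus strand: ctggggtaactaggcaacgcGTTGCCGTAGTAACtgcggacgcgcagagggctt
Tekt2, chr4:126325685-126325737, minus strand: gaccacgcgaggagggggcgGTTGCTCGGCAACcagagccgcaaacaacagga

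These 6 matches are 19.4% of the 31 promoters, beside 1.75% of the 27025 genes in the table and 1.73% of its protein-coding genes. Of the 14 genes called lower that had an entry, 4 held the X-box (Ccno, Cfap44, Dynlrb2 and Hydin), and of the other 17, 2 held it (Spag16 and Tekt2). The shorter core GTTGCC, read as GGCAAC on the other strand, was present in 14 of the 31 promoters, which is 45.2%, against 14.1% of all genes in the table. In all 6 genes shown with an X-box, the capitals contain this core, so the counts of X-box and core share the same letters. The core occurred in 5 of 14 promoters of genes called lower and in 9 of 17 of the others. The core was also held by 45.2% of the 93 other motile cilia genes with an entry and by 52.4% of the 21 primary cilium genes with one. The forkhead letters TGTTTAC, read as GTAAACA on the other strand, were present in Ak7 and Cfap43 alone, 6.45% of 31 promoters beside 4.05% of all genes. Both of those matches are shown because both genes were called lower.
Ak7, chr12:105705831-105705877, plus strand: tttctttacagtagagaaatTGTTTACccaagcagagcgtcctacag
Cfap43, chr19:47837390-47837436, minus strand: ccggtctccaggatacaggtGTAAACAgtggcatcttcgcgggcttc
A match describes letters in a window and was not measured as a bound site. Median GC content of the windows was 54.7% for the 31 genes and 52.8% for the table.

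None of the 3 radial spoke head genes was called. Rsph9 was the second most abundant of the 37 genes, at 39.86 and 42.48 TPM, and its 707 and 685 counts gave nearly equal scaled levels. Rsph1 was far lower, at 4.04 and 2.88 TPM (1.48-fold, interval 1.05 to 2.08, adjusted p = 0.0535, exact binomial test). Rsph4a was at 1.58 and 1.21 TPM (1.37-fold, interval 1.03 to 1.84, adjusted p = 0.0678, exact binomial test). Rsph9 stood above the other spoke head genes in both libraries.

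Dynein heavy chains are the motors of the arms, and their transcripts were the scarcest of the list. Of the 9 chains listed, only Dnah2 and Dnah9 reached 1 TPM in both libraries, at 3.20 and 2.31 TPM and at 2.60 and 2.59 TPM. The inner arm chains Dnah3, Dnah10 and Dnah12 were the 3 lowest of the 37 genes, with 0.03 to 0.14 TPM in either library. Dnah5, an outer arm chain often affected in primary ciliary dyskinesia, was at 0.27 and 0.32 TPM from 88 and 98 counts and was not called. Dnah6, an inner arm chain, had 206 counts in replicate 1 and 95 in replicate 2, or 0.77 and 0.39 TPM. It was 2.09-fold lower (interval 1.63 to 2.69, adjusted p = 1.71e-08, exact binomial test), the smallest adjusted p of the 37 genes. Dnah1 (1.06 and 0.87 TPM, adjusted p = 0.0205, exact binomial test) and the outer arm chain Dnah11 (0.58 and 0.26 TPM, adjusted p = 0.0251, exact binomial test) were also called lower. Dnah12 was called higher on 5 counts in replicate 1 and 18 in replicate 2, a 3.74-fold difference with an interval of 1.34 to 12.9 (adjusted p = 0.0205, exact binomial test). The call on Dnah12 was lost where a mean of 50 counts was required, since the gene is then not tested. Ccno, Tekt4 and Spag17, called lower, are not tested under that filter either. Within the outer arm, Dnah9 stood above Dnah5 and Dnah11 in both libraries.

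Of the smaller dynein subunits, Dynlrb2 showed a clear gap between the libraries. This roadblock light chain (chr8:116504974-116515915) was at 19.44 TPM in replicate 1 and 10.31 TPM in replicate 2, from 165 and 80 counts. It was 1.98-fold lower (interval 1.51 to 2.63, adjusted p = 2.93e-06, exact binomial test), and its log2(TPM + 1) ratio of -0.85 was the lowest of the 37. Its paralog Dynlrb1, a light chain that serves cytoplasmic dynein in all cells, was at 617.36 and 602.52 TPM and was also called lower, though by 0.04 on the log2(TPM + 1) scale. Among paralogs of the regulators, Foxj3 (23.67 and 29.13 TPM) and Rfx7 (18.94 and 19.74 TPM) were the most abundant, and neither was called. Dnali1, an inner arm light chain, was at 1.45 and 1.21 TPM and was not called.

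The tektins are filament proteins inside the doublets, and 1 of the 3 was called lower. Tekt1 was at 7.96 TPM in both libraries and Tekt2 at 5.68 and 6.57 TPM, and neither was called. Tekt4 was at 1.83 and 0.96 TPM from 56 and 27 counts, 2.00-fold lower (interval 1.24 to 3.29, adjusted p = 0.0113, exact binomial test). The least abundant tektin was the only one called.

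The 4 central pair genes of the list were low, with a median of 1.34 TPM. The wider group of radial spoke and central pair genes, described below, had a median of 3.76 TPM. Hydin, a very large projection protein with a coding transcript of 15.783 kb, was at 0.24 and 0.13 TPM from 82 and 41 counts (1.92-fold lower, interval 1.31 to 2.87, adjusted p = 0.00286, exact binomial test). Spag17 was called lower by its counts of 52.56 and 23.84 (2.12-fold, adjusted p = 0.0081, exact binomial test), while its TPM of 0.86 and 0.74 differed little. Spag16, at 1.99 and 1.78 TPM, and Cfap54, at 2.62 and 1.96 TPM, were not called. Of the Spag17 counts, 45.58 and 16.84 lay on its coding transcript of 7.862 kb. Its other transcripts, of 0.651 to 0.678 kb, held few counts in both libraries but most of the TPM.

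Among the 8 rulers, docking and linker proteins, all reached 1 TPM in both libraries and 4 were called lower. Cfap43 and Cfap44, partners in a tether that holds an inner dynein, were at 7.66 and 5.37 TPM and at 8.43 and 6.19 TPM. Their differences were 1.48-fold (interval 1.29 to 1.71, adjusted p = 3.93e-07, exact binomial test) and 1.46-fold (interval 1.26 to 1.69, adjusted p = 2.42e-06, exact binomial test). More than 50% of the Cfap43 value is a transcript of another gene, as given below, and its own transcripts were 1.89-fold lower. Cfap52, which lies inside the doublet, was at 6.93 and 4.12 TPM, 1.53-fold lower (interval 1.25 to 1.86, adjusted p = 0.000125, exact binomial test). Ccdc39 and Ccdc40 form a molecular ruler that spaces the dynein arms along the doublet. Ccdc40 was at 15.41 and 14.01 TPM and was called 1.19-fold lower (adjusted p = 0.0115, exact binomial test), and Ccdc39 was at 6.80 and 7.23 TPM and was not called. Drc1 of the nexin-dynein complex (4.31 and 4.61 TPM), the docking protein Ccdc114 (6.37 and 6.08 TPM) and Ccdc113 (2.71 and 2.53 TPM) were not called. Their scaled folds, replicate 1 over replicate 2, lay at 0.985, 0.995 and 1.13.

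Tppp3, a tubulin-binding protein, was the most abundant gene of the list (chr8:105467493-105471526). At 161.81 and 168.46 TPM it stood above 95.9% of protein-coding genes, and its 3030 and 2943 counts gave a scaled fold of 0.991 (interval 0.941 to 1.04). The 34 genes other than Tppp3, Rsph9 and Rfx3 summed to 135.50 TPM in replicate 1 and 108.54 TPM in replicate 2, a ratio of 1.25, where the ratio over all 37 was 1.05. Ak7, an adenylate kinase of cilia, was at 1.39 and 0.94 TPM and was called 1.56-fold lower (adjusted p = 0.0312, exact binomial test). The 3 most abundant genes were thus not called and hid, in the total, the lower values of many others.

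For several of these genes much of the level lay outside the longest coding transcript. Of the 18 genes with more than 1 transcript and a mean of at least 0.5 TPM, 14 had less than 50% of their TPM on the longest coding transcript. That is 77.8%, against 48.8% of 10389 protein-coding genes chosen the same way, and the median share on that transcript was 24.8% and 51.5%. The median share on any coding transcript was 82.5%, against 92.7%. Some of these levels lay on coding transcripts of nearly the same length. With every coding transcript of at least 90% of the longest length included, a setting chosen after the data had been seen, 10 of the 18 (55.6%) stayed below 50%, against 34.1% of 10380 protein-coding genes. Tekt1, Tekt2, Rfx2 and Dnah6 were then above 50%, at 100%, 71.1%, 100% and 100%. Length here is that of the whole transcript, not of its coding part. Tppp3 and Rfx3 are among the 10, although coding transcripts of any length held 100% and 88.5% of their TPM. On coding transcripts of any length, 4 of the 18 (22.2%) had less than 50%, against 10.6% of the 10389 genes. Dnah2 had 56.8% ± 9.00 (SD, n = 2) of its TPM on a noncoding processed transcript of 2.616 kb, beside 23.9% ± 10.3 on its longest coding transcript of 13.704 kb. Dnah9 had 45.5% ± 5.76 on a coding transcript of 2.671 kb. The levels of these chains above the other heavy chains thus rested in good part on short transcripts, and 0.48 to 0.72 TPM was assigned to the longest coding transcript of either gene.

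Similar splits were found outside the heavy chains. Ccdc40 had 37.2% ± 0.535 on a noncoding transcript of 1.662 kb, and 34.8% and 33.5% on coding transcripts. Cfap44 had 39.5% ± 11.8 on a transcript of 0.593 kb annotated as non-stop decay. For Spag17 the coding share was 31.4% in replicate 1 and 14.9% in replicate 2, and retained-intron transcripts held 16.3% and 59.5%. Those retained-intron shares rested on at most 3.91 counts per transcript in either library. Counts summed over coding transcripts alone, an alternative chosen after the data had been seen, called 17 of the 37 genes lower, adding Rsph1 and Rsph4a, where 19.7% of all genes tested were called lower. The same counts called Rfx3 and Dnah12 higher, where 17.6% of all genes were. The coding count of Cfap43 still includes the transcript of Itprip described below. Foxj1, Mcidas, Gmnc, Ccno and Dynlrb2 have 1 annotated transcript each, so their values carry no such split.

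The entry of Cfap43 mixes 2 genes. The largest transcript of the entry, 58.8% ± 4.52 of its TPM, is given by GENCODE M21 to the neighbouring gene Itprip. Without that transcript Cfap43 was at 3.40 and 2.04 TPM, from 161.48 and 82.27 estimated counts, a 1.89-fold lower value in replicate 2. The transcript of Itprip was at 4.26 and 3.33 TPM, 1.34-fold lower by its counts. Both components were lower in replicate 2, and the level printed above for Cfap43 is 2.40 times that of its own transcripts.

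**Figure D3:**
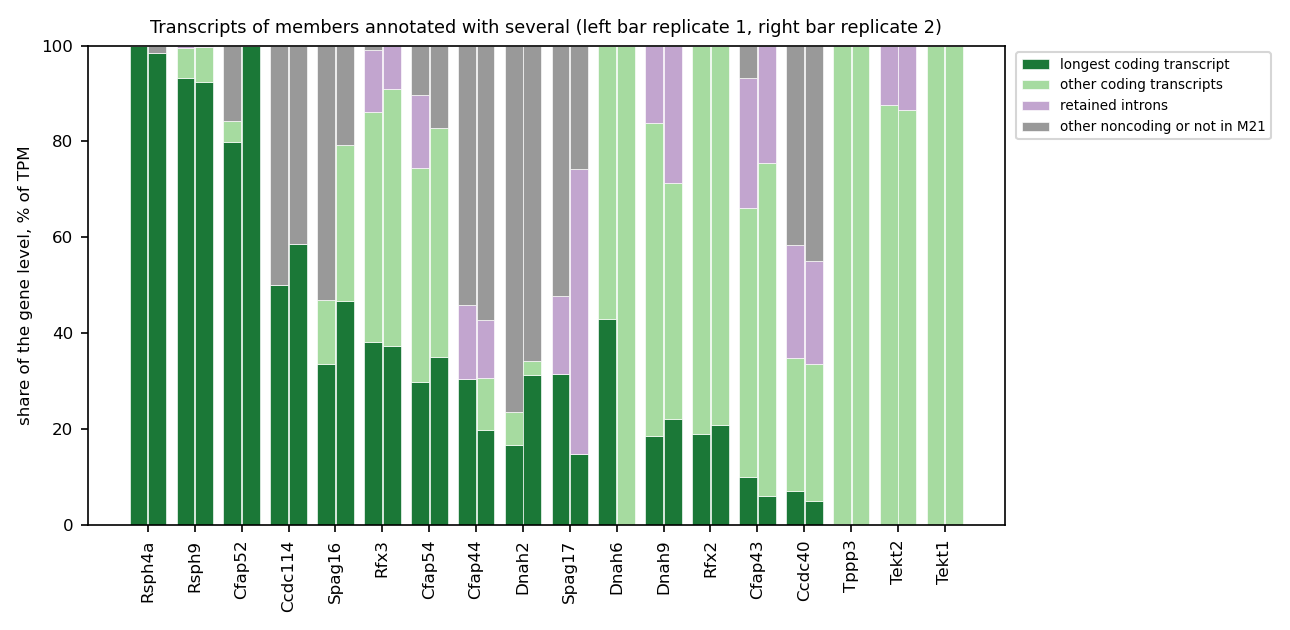
Share of each gene's TPM on the longest coding transcript, other coding transcripts, retained introns and the rest, which are noncoding or without a type in M21, for the 18 genes with several transcripts and at least 0.5 TPM; left bars are replicate 1 and right bars replicate 2. Rsph4a and Rsph9 lie almost wholly on the longest coding transcript, whereas Dnah2, Cfap44, Ccdc40 and Spag17 have most of their level outside coding transcripts; the grey part of Ccdc114, 50% and 41.4%, has no type in M21.

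Exons of some of these genes overlap genes on the opposite strand, and the strand setting of the counting is not given in the sources used here, so reads of such pairs cannot be told apart. The overlap was 16.9% of the exon bases of Ccdc39, with Ttc14 at 12.29 and 12.97 TPM. It was 10.5% for Dnah3, with Lyrm1 at 14.61 and 14.78 TPM, and 9.66% for Spag17, with Wdr3 at 23.63 and 29.53 TPM. Dnah11 shared 4.44% with Cdca7l, at 3.80 and 4.61 TPM. For Dnah3, whose own level was at most 0.05 TPM, the overlapping gene was far more abundant.

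The rest of the machinery was described by a wider list. Of 117 further genes of motile cilia and their assembly, 116 were measured, 83 reached 1 TPM in both libraries and 103 were tested. Of these, 23 were called lower (22.3%, near the 18.7% of all genes) and 5 higher (4.85%, beside 15.7%), and their median log2 ratio of scaled counts was -0.16. Only 1700012B09Rik, a transcript of ciliated cells, passed 2-fold on the log2(TPM + 1) scale, at 6.19 and 2.26 TPM. With spike-in scaling 15 were called lower and 19 higher, where 8.46% and 35.2% of all genes were.

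In centriole amplification and its upstream regulators, 1 of 16 tested genes was lower and 2 were higher. Deup1, a deuterosome protein specific to multiciliated cells, was called lower at 2.19 and 1.22 TPM, and Plk4 and Stil, which also serve dividing cells, were called higher at 9.46 and 11.20 TPM and at 2.23 and 2.92 TPM. The most abundant there, Tfdp1 (83.33 and 88.38 TPM), E2f4 (32.10 and 36.85 TPM) and E2f5 (24.80 and 27.08 TPM), are cell cycle factors and were not called. None of 13 tested dynein assembly factors was lower. Ruvbl1 (67.88 and 78.77 TPM) was called higher, and Pih1d1 and Ruvbl2 were not called, at 73.64 and 73.24 TPM and at 62.65 and 62.69 TPM. These chaperone components also act outside cilia.

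Structural subunits and transcripts of ciliated cells were counted by group, and the counts are to be read against the 18.7% of all genes called lower and the 15.7% called higher. Of 17 tested radial spoke and central pair genes, 7 were lower, among them Nme5 (18.30 and 15.45 TPM), and Rsph3a (21.69 and 26.15 TPM) was higher, while Rsph3b (41.13 and 45.92 TPM) was not called. Of 25 nexin-dynein and inner microtubule genes, 7 were lower, among them Cfap20 (100.65 and 92.87 TPM), while Gas8 (29.13 and 30.90 TPM) and Nme7 (20.64 and 21.17 TPM) were not called. Of 15 further dynein arm and docking genes, 3 were lower, among them Efcab1 (11.68 and 9.94 TPM), while Dnal4 (46.71 and 49.75 TPM) and Dnah7a (7.78 and 8.36 TPM) were not called. Dnah7a and Rsph3a have near-identical copies, so the split of reads between copies is uncertain. Of 17 further transcripts of ciliated ependymal cells, 5 were lower, among them Mlf1 (35.75 and 23.19 TPM), and Fam216b was higher at 0.88 and 1.41 TPM. Morn2 (50.54 and 46.75 TPM) and 1110017D15Rik (19.07 and 15.76 TPM) of that group were not called.

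Genes of the primary cilium, the single signalling cilium of most cells, were more abundant. All 22 reached 1 TPM in both libraries, and their median level was 15.1 TPM, against 2.51 TPM for the 37 motile cilia genes. Of them, 4 were called lower (18.2%) and 2 higher (9.09%), shares near those of all genes tested, and their median log2(TPM + 1) ratio was 0.04. Kif3a, a motor of intraflagellar transport, was at 200.73 and 225.02 TPM and was called higher. Ift20, at 96.70 and 96.97 TPM, was not called, and Tmem216 of the transition zone, at 44.98 and 42.17 TPM, was called lower.

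Markers of choroid plexus epithelium, floor plate, roof plate, ependyma and astroglia were also compared between the libraries. Of 10 choroid plexus epithelium markers, all were tested, 6 were called lower in replicate 2 and 2 higher, and their sum was 2042.91 and 1270.19 TPM, a ratio of 1.61. Over all genes, 18.7% were called lower and 15.7% higher, the shares against which these marker counts stand. Most of the sum is Ttr, without which it was 218.11 and 176.02 TPM, a ratio of 1.24. Ttr, the thyroid hormone carrier that this epithelium secretes, was at 1824.80 and 1094.17 TPM, Folr1 at 54.55 and 34.33 TPM and Enpp2 at 87.07 and 83.20 TPM, all called lower. Kl (0.89 and 1.47 TPM) and Lmx1a (2.64 and 3.81 TPM) were called higher, and Otx2 (14.20 and 16.17 TPM) was not called. None of these markers was at 0. The sum of 7 floor plate markers was 169.44 and 159.03 TPM with 4 called lower, among them Spon1 (72.20 and 69.07 TPM), Sulf1 and Slit1. The sum of 6 roof plate markers was 42.68 and 33.48 TPM with 2 called lower, among them Msx1 (29.55 and 20.53 TPM), and 1 higher, Lmx1a, which is on both lists; Bmp6 (6.80 and 6.47 TPM) was not called. The 7 ependymal and astroglial markers summed to 2502.76 and 2500.83 TPM, with 3 called lower and 3 higher; Fabp7, Vim and Slc1a3, which are abundant in progenitors too, led them. Replicate 1 thus held more RNA of choroid plexus epithelium markers and of many motile cilia genes, and the part of the former in the latter was not tested.

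Motile cilia genes are also active in airway, oviduct and testis, which were not dissected here. Of 9 airway, oviduct and nasal markers, 5 were at 0 in both libraries (Scgb1a1, Scgb3a2, Bpifa1, Sftpc and Krt5), and the sum was 7.41 and 9.22 TPM, led by Epcam, Ovgp1 and Cdh1. Of 7 male germ line markers, Prm2 and Tnp1 were at 0 in both, and the sum was 4.16 and 2.94 TPM, led by Ddx4, Acr and Prm1.

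**Figure D4:**
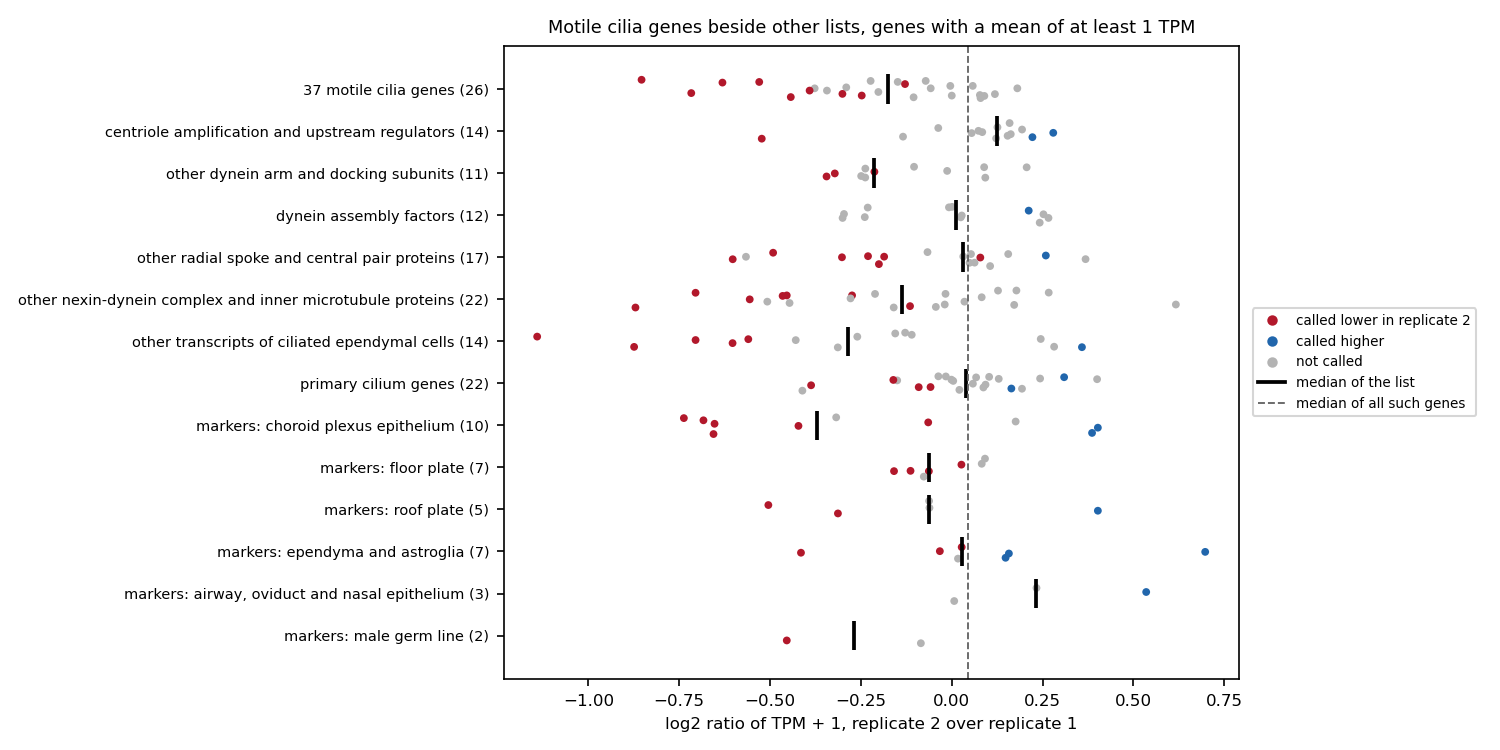
Genes of each list that averaged 1 TPM or more (number in brackets), plotted by the log2 ratio of TPM + 1 between replicate 2 and replicate 1, with red points called lower, blue points called higher and grey points not called; black bars are list medians and the dashed line is the median of all such genes, 0.05. The median of the motile cilia genes is -0.18, that of the choroid plexus epithelium markers is -0.37 and that of the primary cilium genes is 0.04.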

How the data were processed

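Total RNA longer than 200 nt (10 ng, mirVana extraction, spike-in RNAs; a general protocol named SmartSeq) was sequenced from 2 hindbrains, per the labels' protocols. The authors assigned reads to mm10 with annotation M4, per the file headers and accompanying notes. Which aligner, quantifier and strand setting served is not given in the sources used here. Expected counts, deposited for genes and transcripts, are estimates of reads and need not be whole. Scaling of the deposited TPM and FPKM values by the authors ran over all 69691 features of a file, including 97 spike-in features and 26248 with numeric identifiers. The deposited credibility bounds of TPM, used as score values, have no stated level.

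Expected counts were rounded for the exact binomial test, which used genes with a mean of at least 10 counts and a scaling to the gene total. Gene totals were 33727977 and 32450699 counts, with spike-ins at 8.15% and 7.72% of TPM. edgeR's quasi-likelihood test could not be fitted with 1 library against 1, so p-values measure only a difference beyond counting noise and may be technical. Folds in TPM used a pseudocount of 1. Tested on simulated data of 17664 genes for replicate 2 against replicate 1, the exact binomial test called 70% of 1.5-fold and 86% of 2-fold increases, 72% of 2-fold decreases and 0.0344% of unchanged genes. The simulated counts held counting noise alone, which is what the test assumes. The rate for unchanged genes therefore says nothing about other variation between real libraries.

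Symbols came from 42462 matched identifiers, and 228 of 229 listed symbols matched (Cfap47 did not; Dnai1, Dnai2 and Heatr2 matched by older names in RefSeq). Coordinates, gene types and transcript types came from GENCODE M21 on GRCm38, whose gene models can differ from M4. The members and lists were chosen with earlier results of these data known. All members were named, with the 3 most abundant genes of every other group and any past 2-fold; others (Deup1, Plk4, Stil, Fam216b, Tmem212, Sntn, Ccdc153, Kl, Otx2, tissue markers) were chosen after their values were seen. Alternatives were other units, limits, pseudocounts, filters, TMM, DESeq2 and spike-in scaling, each replicate alone, coding transcripts, and a shorter promoter window. Tools were R 4.3.3 with edgeR 4.0.16 and DESeq2 1.42.0, and Python 3.11.15 with scipy 1.17.1, numpy 2.4.6, matplotlib 3.10.9 and pandas 2.3.3.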

Additional observations from a re-analysis of the deposited data

How the results depend on the processing

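The count of motile cilia genes called lower, 15, stayed within 1.5 times under every alternative run, from 11 with spike-in scaling to 17 with coding transcripts. The count called higher, 1, became 2 with TMM factors, DESeq2 size factors or coding transcripts, 3 with spike-in scaling and 0 with a mean of at least 50 counts. Dnah1, Dnah11, Ccdc40 and Ak7 were no longer called with spike-in scaling. With a mean of at least 50 counts, 13 were called lower, and Ccno, Tekt4 and Spag17 were not tested. Of the other pathway genes, 15 were lower and 19 higher with spike-in scaling. Of the 22 primary cilium genes, 1 was lower with TMM factors or spike-in scaling and 2 with DESeq2 size factors. With spike-in scaling 7 of the 22 were higher. These counts stand against 8.46% of all genes lower and 35.2% higher with spike-in scaling. The share of all genes lower was 14.7% with TMM factors and 15.6% with DESeq2 size factors. The count past 2-fold downwards, 0, became 1 with a pseudocount of 0.1 and 1 with TMM-scaled counts. In FPKM, another unit, the summed level was 209.4, and 110.8 without Tppp3. Genes at the detection limit numbered 23, from 19 at 2 TPM to 30 at 0.5 TPM; with each replicate alone they numbered 23 and 28. No called gene changed sign. Among genes not called, Dnah2, Dnah9, Tekt1 and Tekt2 changed sign with spike-in scaling, and Rsph9, Ccdc39 and Tppp3 with coding transcripts. None of these was called in the setting where its sign changed. Tppp3 was called higher with spike-in scaling, without a change of sign. Genes of under 100 counts, among them 5 dynein heavy chains, have wide intervals. No paired analysis was possible because both replicates belong to 1 group.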
